A study of Mus musculus with 9 samples.

Results

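The genes described here are 9 transcripts tied to mucosal antibody secretion: Jchain, Pigr, Mzb1, Derl3, Cd79a, Cd79b, Ms4a1, Tnfrsf17 and Tnfrsf13b. They were taken by symbol from the 21930 genes of the expression table, and all 9 had a row. The libraries came from nasal mucosa of wild-type mice, and the sources used here do not give their age, sex or strain. The control group (3 libraries) is labelled with no treatment, and the eCRS group (3 libraries) received 20 µg of papain, a cysteine protease, intranasally in 20 µl of PBS on days 0 to 2 and 7 to 11, a mouse model of eosinophilic chronic rhinosinusitis. The eCRS_Exo group (3 libraries) received the same papain and, on days 7 to 11, exosomes of mesenchymal stem cells (MSC-Exos), which are small vesicles that these cells release. The labels give PBS as the alternative to MSC-Exos without naming the groups that received it, and all mice were killed on day 12. Nothing in the labels ties a library to a single mouse, so each p-value reflects how much these libraries vary, and that variation may be technical.

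Antibody at mucosal surfaces is made by plasma cells in the tissue beneath the epithelium. B cells carry a surface antigen receptor whose signalling subunits are CD79A and CD79B, and they bear CD20, the product of Ms4a1. On becoming plasma cells they lose much of this surface machinery, expand the endoplasmic reticulum and join IgA or IgM into polymers with the J chain, the product of Jchain. Epithelial and gland cells then carry these polymers into the secretions with the polymeric immunoglobulin receptor, the product of Pigr. MZB1 is a chaperone of antibody-secreting cells, DERL3 helps to clear misfolded proteins from the endoplasmic reticulum, and BCMA (Tnfrsf17) and TACI (Tnfrsf13b) are receptors for the survival ligands BAFF (Tnfsf13b) and APRIL (Tnfsf13).

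Levels are in FPKM, fragments per kilobase of transcript and per M (mega) mapped fragments, as the authors deposited them. Estimated depths ran from 15.1 to 24.5 M fragments per library, a rough estimate. The 15 genes with the largest shares took 49.7% to 52.5% of the length-weighted signal in the controls but 16.0% to 34.2% in the eCRS_Exo libraries, and FPKM moves every other gene against such a share. All comparisons were for this reason repeated after median-of-ratios scaling, which sets the typical gene equal across libraries ("scaled" below), with factors of 0.710 to 1.75. As deposited, the median log2(FPKM + 1) of all tested genes was shifted by 0.19 with papain, by a further 0.56 with exosomes added, and by 0.76 between the exosome libraries and the controls. Changes as deposited are read against those shifts.

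By GENCODE M21 on GRCm38, which is the mm10 build, all 9 genes are protein-coding. Jchain lies on the minus strand at chr5:88519809-88527891, Pigr on the plus strand at chr1:130826684-130852249 and Derl3 on the plus strand at chr10:75893413-75895941. Cd79a is on the plus strand at chr7:24897381-24902197 and Cd79b on the minus strand at chr11:106311341-106314762. Ms4a1 is on the minus strand at chr19:11249675-11266241, Tnfrsf17 on the plus strand at chr16:11313812-11320074 and Tnfrsf13b on the plus strand at chr11:61126755-61149372. RefSeq promoter windows (GRCm38.p6), the 250 bases before the start, were matched for 6 of the 9 genes: Jchain, Pigr, Derl3, Cd79a, Tnfrsf17 and Tnfrsf13b. They were searched on both strands for the E-box CACGTG, bound by basic helix-loop-helix and related factors, the octamer ATGCAAAT of B cell promoters, the interferon regulatory factor core AANNGAAA and the early B cell factor motif. The 4 windows with a match are shown because they include those of Jchain and Pigr, the members called higher after papain, on the strand of the gene with the matched letters in capitals.
Pigr promoter, chr1:130826434-130826683, plus strand: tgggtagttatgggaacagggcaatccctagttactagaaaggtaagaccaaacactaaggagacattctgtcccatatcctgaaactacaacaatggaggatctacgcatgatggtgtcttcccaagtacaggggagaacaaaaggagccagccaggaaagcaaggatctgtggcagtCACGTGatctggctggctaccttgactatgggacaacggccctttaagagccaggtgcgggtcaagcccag
Derl3 promoter, chr10:75893148-75893397, plus strand: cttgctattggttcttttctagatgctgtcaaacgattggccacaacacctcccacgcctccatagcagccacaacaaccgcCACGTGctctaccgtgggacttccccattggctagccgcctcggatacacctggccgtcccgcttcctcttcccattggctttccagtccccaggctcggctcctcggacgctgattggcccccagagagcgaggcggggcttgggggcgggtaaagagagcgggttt
Jchain promoter, chr5:88527898-88528147, minus strand: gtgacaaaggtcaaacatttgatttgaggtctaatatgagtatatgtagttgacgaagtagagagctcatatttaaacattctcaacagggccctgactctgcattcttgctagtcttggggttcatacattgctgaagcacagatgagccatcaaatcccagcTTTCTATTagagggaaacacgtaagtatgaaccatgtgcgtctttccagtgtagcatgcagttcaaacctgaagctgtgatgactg
Tnfrsf17 promoter, chr16:11313559-11313808, plus strand: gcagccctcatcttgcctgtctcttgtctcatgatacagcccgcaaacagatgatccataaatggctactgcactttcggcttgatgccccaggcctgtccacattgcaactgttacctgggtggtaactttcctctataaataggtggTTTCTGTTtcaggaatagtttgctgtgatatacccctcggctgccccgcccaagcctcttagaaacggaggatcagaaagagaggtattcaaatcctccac

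The E-box lay 71 to 66 bases before the start of Pigr and 168 to 163 before that of Derl3, and 6.02% of the 32851 windows of this length in the RefSeq table hold one. The interferon regulatory factor core was read on the opposite strand, as TTTCNNTT, 86 to 79 bases before Jchain and 101 to 94 before Tnfrsf17, and 21.3% of windows hold it. The octamer (1.60% of windows) and the early B cell factor motif (0.779% of windows) were not found in the 6 windows. Pigr and Derl3 share the E-box, and with exosomes and papain Pigr was higher and Derl3 lower than in control, as described below. Any role of these matches in the levels was not tested.

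In control mucosa the 9 genes spanned a wide range of levels per length. Derl3 and Pigr were the most abundant, with means of 15.6 ± 1.36 and 14.0 ± 2.77 FPKM (SD, n = 3), and the ranges of this pair overlapped. Jchain followed at 4.03 ± 1.58 FPKM, below every Pigr value and above every Mzb1 value. Mzb1 (mean 0.619) and Cd79b (0.576) overlapped, and Cd79a (0.195), Tnfrsf13b (0.162), Ms4a1 (0.111) and Tnfrsf17 (0.0722) were lower still, each overlapping the next. At these levels an estimated 4.27 to 9.16 fragments lay behind each control value of Cd79a and at most 3.34 behind those of Tnfrsf17, so that single library values of these receptors rest on very few fragments. In the eCRS libraries the order changed to Jchain, Pigr and Derl3, with the ranges of Jchain and Pigr overlapping, and in the eCRS_Exo libraries to Pigr, Jchain and Derl3, with each overlapping the next. Of the 12 immunoglobulin constant-region genes in the lists, including Igha, Ighm, Ighg1 and Igkc, none had a row in the table used, and antibody transcripts themselves were not analysed here.

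**Figure D1:**
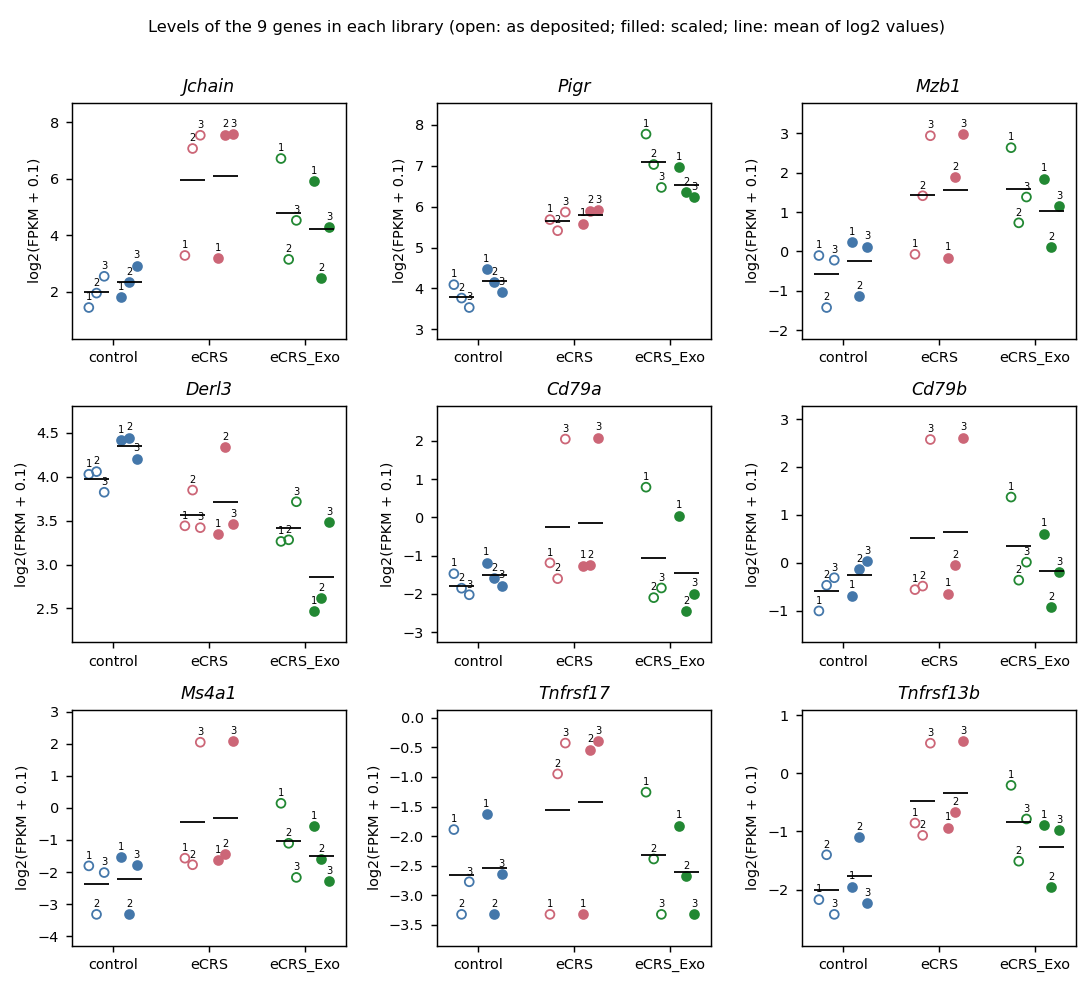
Levels of the 9 genes as log2(FPKM + 0.1) in each of the 9 libraries, with open circles as deposited, filled circles scaled, numbers giving the library and bars the mean of the 3 log2 values. Jchain stood at 134 and 185 FPKM in eCRS libraries 2 and 3 against 9.61 in eCRS library 1, Pigr separated the 3 groups, and Cd79a, Cd79b and Ms4a1 stood high in eCRS library 3 and next highest in eCRS_Exo library 1.

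Jchain was the member with the largest difference after papain. It was 2.61, 3.75 and 5.72 FPKM in the 3 controls, 9.61, 134 and 185 in the eCRS libraries, and 105, 8.71 and 22.9 in the eCRS_Exo libraries. Every papain-exposed library, with or without exosomes, lay above every control as deposited, but within each exposed group the libraries were more than 10-fold apart. After scaling, eCRS_Exo library 2 (5.46) fell inside the control range of 3.41 to 7.47. As deposited, Jchain rose by 3.73 ± 0.77 (log2, SE) with papain (limma, adjusted p = 0.00655) and was 2.58 higher with exosomes and papain than in control (adjusted p = 0.005). After scaling, the corresponding differences of 3.56 (adjusted p = 0.0725) and 1.73 (0.261) did not pass the test. Exosomes with papain against papain gave -1.15 as deposited (adjusted p = 0.184) and -1.83 scaled (0.236), with the libraries of the 2 groups interleaved.

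Much of this uncertainty sat with individual libraries. Without eCRS library 1, the low Jchain library of its group, the scaled papain difference became 4.98 (limma, adjusted p = 0.00503). The same omission gave -2.45 as deposited (adjusted p = 1.11e-04) and -3.25 scaled (adjusted p = 0.014) for exosomes with papain against papain. Leaving out eCRS_Exo library 1, the high library of its group, gave -2.08 as deposited (adjusted p = 0.0286) and -2.63 scaled (adjusted p = 0.149). Leaving out eCRS library 2 gave -0.61 (adjusted p = 0.559), eCRS library 3 -0.38 (adjusted p = 0.647) and eCRS_Exo library 2 -0.36 (adjusted p = 0.606) as deposited, and -1.02 to -1.13 scaled (adjusted p = 0.516 to 0.558), so the exosome difference of Jchain rests on which libraries enter. With no filter on low values the papain difference was not called (adjusted p = 0.182). The within-group SD of scaled Jchain, 1.72 on the log2(FPKM + 1) scale, was larger than that of 99.97% of the 12507 tested genes, whose median was 0.13.

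Of the 9 members, 4 (Jchain, Pigr, Mzb1 and Derl3) reached 1 FPKM in at least 3 libraries and entered the main test, and the other 5 were tested in a second fit with a filter and pseudocount of 0.1 FPKM (the low-level fit). As deposited, papain raised 2 of the 4, Jchain and Pigr, where 3.01% of the 12738 genes tested were called higher and 0.518% lower. After scaling it was Pigr alone, where 5.77% of 12507 genes were called higher and 4.15% lower. Between the exosome and the papain libraries, Pigr was called higher on both scales. There 63.0% of all genes were called higher and 0.73% lower as deposited, and 13.4% higher and 16.2% lower when scaled. Against control, the exosome libraries had 3 members higher (Jchain, Pigr and Mzb1) and Derl3 lower as deposited, where 84.3% of genes were called higher and 0.526% lower, so 3 of 4 higher is close to the background. On the scaled values of that comparison Pigr was higher and Derl3 lower, where 12.3% of genes were called higher and 15.6% lower. The 3 comparisons share libraries and are not independent of each other. Since RNA came from whole mucosa, fewer cells of a type and less RNA per cell cannot be told apart for any of these genes.

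The other genes of antibody secretion differed from Jchain. Mzb1 was 0.829, 0.272 and 0.756 FPKM in the controls, 0.850, 2.57 and 7.58 in the eCRS libraries, and 6.12, 1.55 and 2.51 in the eCRS_Exo libraries. All exposed libraries were above all controls as deposited, eCRS library 1 by the narrowest margin, which also held the lowest Jchain of the eCRS group. That value rests on an estimated 17.4 fragments, against 24.3 and 22.5 in control libraries 1 and 3. After scaling, eCRS library 1 and eCRS_Exo library 2 fell inside the control range of Mzb1. The papain difference was 1.26 as deposited (limma, adjusted p = 0.0825) and 1.23 scaled (0.156). It was called as deposited without eCRS library 1 (1.79, adjusted p = 2.59e-04), without any single eCRS_Exo library (adjusted p = 0.011 to 0.0354) and in a fit of the 2 groups only (adjusted p = 0.00271). Against control, the eCRS_Exo libraries were 1.32 higher as deposited (adjusted p = 0.00481) and 0.77 higher scaled (adjusted p = 0.271).

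Derl3 did not follow the antibody genes. Its levels were 16.2, 16.6 and 14.1 FPKM in the controls, 10.8, 14.3 and 10.6 in the eCRS libraries, and 9.50, 9.62 and 13.03 in the eCRS_Exo libraries. The eCRS_Exo values lay below every control, and of the eCRS values only that of library 2 (14.3) exceeded the lowest control. Derl3 fell by 0.51 as deposited (limma, adjusted p = 0.0192) and by 1.39 scaled (adjusted p = 0.00728) with exosomes and papain against control. The deposited call was lost without control library 1 or 2 or without eCRS_Exo library 1 or 2 (adjusted p = 0.0661 to 0.0866). For papain against control the differences were -0.37 (adjusted p = 0.331) and -0.60 scaled (adjusted p = 0.201). For exosomes with papain against papain they were -0.14 (adjusted p = 0.516) and -0.78 scaled (adjusted p = 0.0557). Without eCRS library 1 the scaled exosome difference was -0.96 (adjusted p = 0.0379), and without eCRS_Exo library 3 it was -1.06 (adjusted p = 0.0117). Without eCRS library 2 it was -0.49 (adjusted p = 0.16), and without eCRS_Exo library 1 or 2 it was -0.61 (adjusted p = 0.183) or -0.67 (adjusted p = 0.156).

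The B cell receptor genes rested on few fragments in most libraries and were high in a single library of the eCRS group. Cd79a was 0.261, 0.178 and 0.147 FPKM in the controls, 0.339, 0.230 and 4.02 in the eCRS libraries, and 1.63, 0.134 and 0.179 in the eCRS_Exo libraries. Cd79b was 0.398, 0.623 and 0.706, then 0.579, 0.614 and 5.85, then 2.49, 0.678 and 0.909 FPKM in the same order. Ms4a1 was 0.186, listed at 0 and 0.147, then 0.237, 0.193 and 4.05, then 1.01, 0.366 and 0.122 FPKM. For these 3 genes, eCRS libraries 1 and 2 were at or near control levels, eCRS library 3 was the highest of the 9, and eCRS_Exo library 1 was second. None of the 9 members beyond those called in the main test was called after papain in the low-level fit, where 3.02% of the 16942 genes were called higher and 0.791% lower as deposited, and 4.69% higher and 3.58% lower scaled. Its papain differences as deposited were 1.53 for Cd79a (limma, adjusted p = 0.334), 1.10 for Cd79b (0.387) and 1.95 for Ms4a1 (0.211). Without eCRS library 3 and eCRS_Exo library 1 these differences were 0.39, 0.07 and 0.71 (adjusted p = 0.834, 0.972 and 0.735). For exosomes with papain against papain the differences were -0.80, -0.17 and -0.61 (adjusted p = 0.385, 0.824 and 0.51), in a fit where 50.5% of genes were called higher and 0.708% lower as deposited, and 9.49% higher and 11.4% lower scaled. Without eCRS library 3 alone they turned to 0.34, 0.86 and 0.63.

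The receptors for BAFF and APRIL were also low. Tnfrsf17 was 0.170, listed at 0 and 0.0465 FPKM in the controls, listed at 0, 0.418 and 0.644 in the eCRS libraries, and 0.318, 0.0913 and listed at 0 in the eCRS_Exo libraries. Its highest values were in eCRS libraries 3 and 2, the libraries with the most Jchain, and each group held a library listed at 0. Tnfrsf13b was 0.122, 0.279 and 0.0861 in the controls, 0.453, 0.377 and 1.33 in the eCRS libraries, and 0.766, 0.251 and 0.480 in the eCRS_Exo libraries. All 3 eCRS values of Tnfrsf13b exceeded the controls, and the difference was 1.53 in the low-level fit (limma, adjusted p = 0.0731 as deposited and 0.0913 scaled). It was 1.17 higher with exosomes and papain than in control as deposited (adjusted p = 0.0295), where 71.5% of genes in that fit were called higher and 0.478% lower. Scaled, the difference was 0.49 (adjusted p = 0.488), where 8.34% were called higher and 10.5% lower. That deposited call was lost without control library 1 or 3 or eCRS_Exo library 1 or 3 (adjusted p = 0.0511 to 0.137). For Tnfrsf17 no call was made in the 3 comparisons on either scale, and as deposited it differed by 1.09 after papain (adjusted p = 0.411) and by -0.76 with exosomes against papain (adjusted p = 0.327). Without eCRS library 1, where it is listed at 0, exosomes with papain against papain gave -1.63 (adjusted p = 0.0168), and papain against control gave 1.97 (adjusted p = 0.0492), both as deposited. Without eCRS library 3 the same differences were -0.19 (adjusted p = 0.821) and 0.53 (adjusted p = 0.861).

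**Figure D2:**
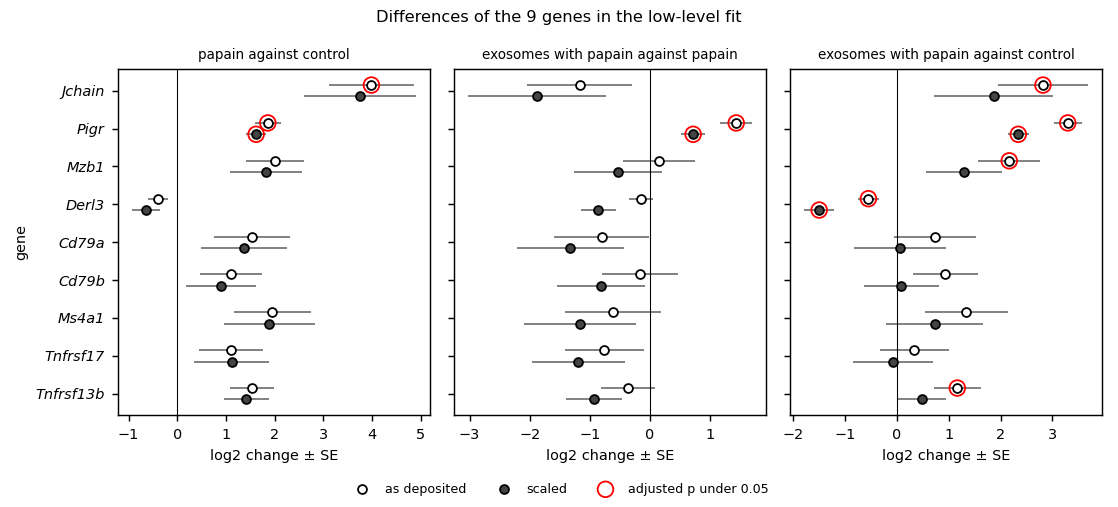
Differences of the 9 genes in the low-level fit of log2(FPKM + 0.1), with SE bars, for the 3 comparisons, open as deposited and filled scaled; red rings mark an adjusted p under 0.05. Pigr is ringed on both scales in all 3 panels, Derl3 on both scales against control with exosomes, Jchain as deposited in the papain and the exosome comparisons with control, and Mzb1 and Tnfrsf13b as deposited against control with exosomes.

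Pigr was the member that separated the 3 groups. It was 16.96, 13.5 and 11.5 FPKM in the controls, 51.3, 42.5 and 58.4 in the eCRS libraries, and 219, 131 and 88.7 in the eCRS_Exo libraries. No library of a group overlapped those of another, on the deposited or the scaled values, which were 15.01 to 22.2, 48.0 to 60.1 and 75.4 to 126. The share of all genes whose groups separate was not counted, here or for the genes named below. With exosomes against papain, 63.0% of all genes were called higher as deposited. Pigr rose by 1.79 ± 0.26 with papain as deposited (limma, adjusted p = 1.71e-04) and by 1.57 scaled (adjusted p = 0.00157). It was 1.42 higher again with exosomes and papain than with papain as deposited (adjusted p = 6.05e-04) and 0.71 higher scaled (adjusted p = 0.0253). Against control the exosome libraries were 3.21 higher as deposited (adjusted p = 5.67e-08) and 2.28 higher scaled (adjusted p = 4.00e-04). The scaled call against papain was lost without eCRS library 1 (0.60, adjusted p = 0.0676), without eCRS library 3 (0.77, adjusted p = 0.0515) and without eCRS_Exo library 1 (0.48, adjusted p = 0.075).

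A ratio of a pair of genes within a library does not depend on the scale of that library. The ratio of Pigr to Epcam, an adhesion molecule of epithelial cells, was 0.350, 0.270 and 0.234 in the controls, 0.474, 0.653 and 0.599 in the eCRS libraries, and 1.62, 1.12 and 0.920 in the eCRS_Exo libraries. The 3 groups did not overlap in this ratio, so Pigr rose relative to Epcam as well as in level. Epcam itself rose after papain, by 0.83 as deposited (limma, adjusted p = 0.0256) and 0.59 scaled (adjusted p = 0.00218), and the deposited call was lost when any single control library or eCRS library 1 or 3 was left out (adjusted p = 0.0895 to 0.175). Between exosome and papain libraries Epcam was higher as deposited but was called lower scaled. With single libraries left out that scaled difference was -0.374 to -0.296. On scaled values, part of the higher ratio in the exosome libraries than in the papain libraries therefore came from Epcam. Epcam was chosen for this ratio and not by the rule for named genes. The ratio of Jchain to Pigr, from the secreting cell and from the transporting epithelium, was 0.154, 0.278 and 0.498 in the controls, 0.187, 3.15 and 3.18 in the eCRS libraries, and 0.478, 0.0666 and 0.258 in the eCRS_Exo libraries. Only eCRS libraries 2 and 3 held more Jchain than Pigr per length. The exosome libraries had the control ratio or less, although both transcripts were above control as deposited.

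**Figure D3:**
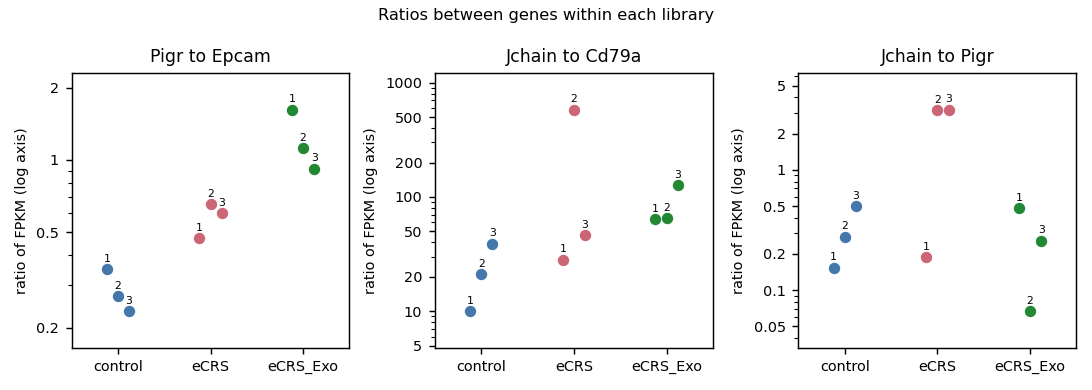
Ratios of FPKM between genes within each library on log axes, with numbers giving the library. Pigr to Epcam rises from 0.234 to 0.350 in the controls to 0.920 to 1.62 in the eCRS_Exo libraries without overlap, Jchain to Cd79a reaches 582 in eCRS library 2, and Jchain to Pigr passes 3 in eCRS libraries 2 and 3.

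The balance of plasma cell and B cell transcripts differed between eCRS libraries 2 and 3. The ratio of Jchain to Cd79a was 9.98, 21.1 and 39.0 in the controls, 28.3, 582 and 46.1 in the eCRS libraries, and 64.4, 65.0 and 128 in the eCRS_Exo libraries. In eCRS library 2 Jchain was 134 FPKM with Cd79a at 0.230, within the control range. In eCRS library 3 Jchain was 185 FPKM with Cd79a at 4.02, and eCRS_Exo library 1 held the highest values of its group for both genes. The denominators of these ratios rest on few fragments in most libraries.

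The high B cell signal of eCRS library 3 extended past the members. On scaled values, that library was at least 3-fold above both other eCRS libraries for 3 of the 9 members, by 12.8-fold for Cd79a, 6.97-fold for Cd79b and 15.4-fold for Ms4a1. The same held for 7 of 17 listed B cell genes and for 0.688% of the 16851 genes compared, a measure chosen after the values were seen. It was the highest of the 9 libraries for 7 of 9 members and 14 of 17 listed B cell genes, against 10.3% of all genes. Among these 7, the margin over eCRS library 2 was small for Jchain (1.01-fold) and Tnfrsf17 (1.125-fold). The corresponding library with exosomes, eCRS_Exo library 1, was on scaled values at least 3-fold above its group for 3 members (Jchain 3.09-fold, Cd79a 6.13-fold and Tnfrsf17 3.19-fold) and 4 of 17 B cell genes, against 0.321% of all genes. Among B cell genes in eCRS library 3, the IgE receptor gene Fcer2a was 0.952 FPKM against at most 0.279 in the other 8. Complement receptor gene Cr2 was 0.740 against at most 0.111.

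Some markers of organised lymphoid tissue were high in eCRS library 3. In eCRS library 3 the B cell-attracting chemokine gene Cxcl13 was 7.01 FPKM against at most 1.39 in the other 8, and Glycam1, a product of lymph node high endothelial venules, was 11.5 against at most 0.603. Ccl21a, which guides cells into lymph nodes, was 11.4 FPKM in that library and 15.2 to 18.1 in the controls. The summed scaled level of the 6 lymphoid stroma markers with a row was 31.9 in eCRS library 3, 8.28 and 14.4 in the other eCRS libraries, 20.4 to 25.8 in the controls and 3.76 to 14.1 in the eCRS_Exo libraries. The lowest sum of all libraries, 3.76, was that of eCRS_Exo library 1. On scaled values its Cxcl13 was 2.75-fold that of the next highest library of its group, and its Ccl21a was 0.177-fold the highest. The 7 T cell markers summed to 6.004 scaled FPKM in eCRS library 3, 2.00 and 3.66 in its group, 1.25 to 1.64 in the controls and 2.39 to 3.68 with exosomes. The 10 marrow precursor markers summed to 2.81 scaled FPKM in that library and 2.69 to 8.54 elsewhere. Rag1 was listed at 0 there, as in every library except library 2 of each group. Dntt in eCRS library 3 was 2.54-fold the next highest eCRS library, and Igll1 was above 0 in no other eCRS library. Vpreb1, Mpo, Elane, Ngp and Camp were each lower there than in another eCRS library. The part of lymphoid tissue in the B cell signal of eCRS library 3 and of eCRS_Exo library 1 was not tested.

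**Figure D4:**
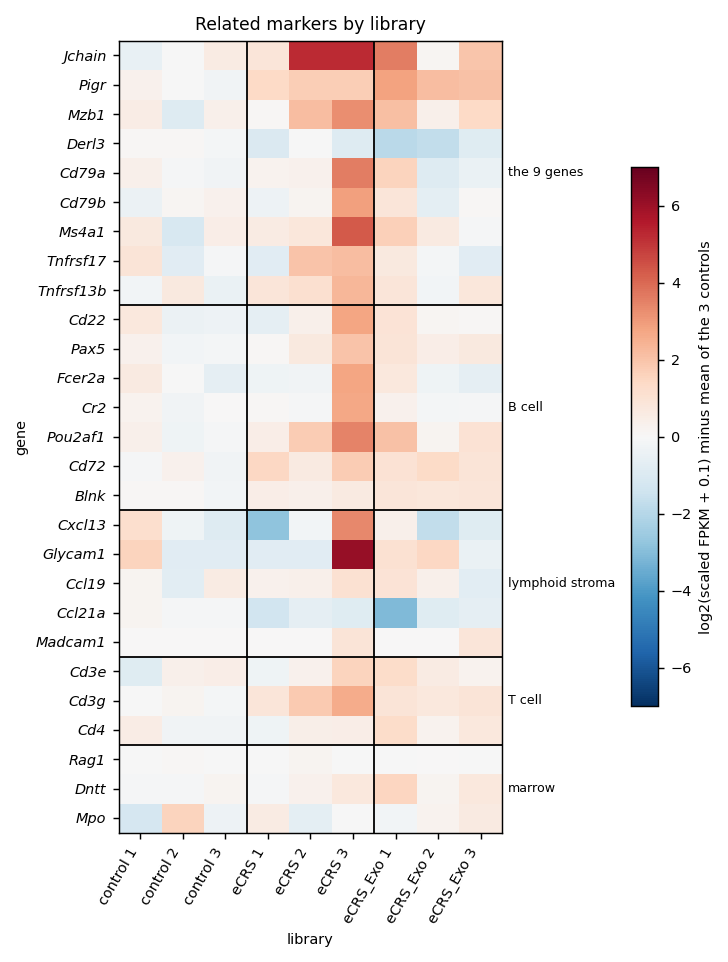
Difference of log2(scaled FPKM + 0.1) from the mean of the 3 controls for the 9 genes and related markers in each library; red is higher and blue lower. The column of eCRS library 3 is red for Cd79a, Cd79b, Ms4a1, Cr2, Cxcl13 and Glycam1, while eCRS library 2 is red for Jchain and Mzb1 with pale B cell rows.

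Among 19 listed genes of B cell identity and receptor signalling, 6 were tested as deposited and 5 scaled. After papain, Cd72 was called higher as deposited, and Cd72 and Blnk, an adaptor of B cell receptor signalling, scaled. Over all genes 3.01% were called higher as deposited and 5.77% scaled. The list's median was 0.61 as deposited and 0.43 scaled, against 0.19 and about zero over all genes. Blnk was 3.92 to 4.72 FPKM in the controls, 5.34 to 8.68 in the eCRS libraries and 12.2 to 18.3 in the eCRS_Exo libraries, far above Cd79a, and its groups did not overlap. Its scaled differences were 0.43 with papain (limma, adjusted p = 0.0148) and 0.31 with exosomes against papain (adjusted p = 0.0249), and 0.63 with papain as deposited (adjusted p = 0.111). Leaving out control library 3 or eCRS library 3 ended the scaled papain call (adjusted p = 0.0552 and 0.0628). Leaving out eCRS library 1 or 2 or eCRS_Exo library 1 or 2 ended the scaled exosome call (adjusted p = 0.0518 to 0.0802).

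Of 14 genes of the plasma cell programme, 10 were tested. After papain, Xbp1, the transcription factor of the secretory programme, was the 1 called higher on each scale, and the list's median was 0.25 as deposited and 0.02 scaled. Over all genes 3.01% were called higher as deposited and 5.77% scaled, with medians of 0.19 and -0.004. Xbp1 was 73.5 to 74.8 FPKM in the controls, 105 to 133 in the eCRS libraries and 85.3 to 122 in the eCRS_Exo libraries, so all exposed libraries were above control as deposited. It rose by 0.70 with papain as deposited (limma, adjusted p = 0.0441) and by 0.46 scaled (adjusted p = 0.0281). Leaving out any single control library ended both calls, as did eCRS library 3 (adjusted p = 0.0746 to 0.278), and so did eCRS library 1 and eCRS_Exo library 2 as deposited and eCRS library 2 scaled. Between exosome and papain libraries Xbp1 differed by -0.27 as deposited (adjusted p = 0.207) and fell by 0.98 scaled (adjusted p = 0.00154). In that comparison 3 of the 10 were called higher as deposited (Sdc1, Creld2 and Txndc5), and 5 were called lower scaled (Fkbp11, Xbp1, Sec11c, Prdx4 and Edem1), with medians of 0.22 and -0.34, against 63.0% of all genes called higher as deposited and 16.2% lower scaled. Against control, Xbp1 with exosomes was 0.43 higher as deposited (adjusted p = 0.042) and 0.52 lower scaled (-0.52, adjusted p = 0.00926), so its direction depends on the scale. Sdc1, Prdm1 and Irf4, other plasma cell genes, are also made by other cell types, and Prdm1 and Irf4 were below 0.8 FPKM in every library. In the controls Xbp1 stood far above Jchain (mean 4.03 FPKM) and Mzb1 (0.619). Which cells gave the transcripts of Xbp1, Fkbp11, Sec11c, Prdx4 and Edem1 was not tested, so their scaled falls cannot be assigned to plasma cells.

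The signals that recruit and sustain these cells formed a list of 17 genes, of which 9 were tested as deposited and 8 scaled. After papain, Ccl20, Ccl28 and Tnfsf13 were called higher as deposited, and Bcl6 as well scaled, with list medians of 0.54 and 0.45. Over all genes 3.01% were called higher as deposited and 5.77% scaled, with medians of 0.19 and -0.004. Ccl28, the mucosal chemokine for IgA-secreting cells, was 6.77 to 9.29 FPKM in the controls, 16.3 to 26.9 in the eCRS libraries and 24.8 to 39.8 in the eCRS_Exo libraries. It rose by 1.24 with papain (limma, adjusted p = 0.0021) and by 1.03 scaled (adjusted p = 0.0113), a scaled call lost without control library 3 (adjusted p = 0.0527). Exosomes added to papain left it 0.62 higher as deposited (adjusted p = 0.0216), a call lost without eCRS library 1 or 2 or eCRS_Exo library 1 (adjusted p = 0.0569 to 0.132), and different by -0.07 scaled (adjusted p = 0.819). Tnfsf13, encoding APRIL, was 2.63 to 3.63 FPKM, then 5.62 to 7.82, then 10.04 to 21.6, without overlap between groups. It rose by 0.91 with papain (adjusted p = 0.0273) and by 0.74 scaled (adjusted p = 0.0149), and leaving out control library 2 or 3 ended both calls (adjusted p = 0.0579 to 0.13), as did eCRS library 1 or 3 the deposited one. Its further difference with exosomes was 1.01 as deposited (adjusted p = 0.00193) and 0.36 scaled (adjusted p = 0.0984). Tnfsf13b, encoding BAFF, stayed at or below 0.368 FPKM in all 9 libraries.

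Ccl20, the ligand of the receptor that draws B cells and dendritic cells to mucosal epithelium, was the gene of this list called lower with exosomes in the main test. In the low-level fit of that comparison Il6 and Il5 were called lower on both scales, by 4.80 (limma, adjusted p = 0.00164) and 2.08 (adjusted p = 0.00348) on the log2 scale as deposited, and there Ccl20 was called lower only scaled (adjusted p = 0.0353, and 0.0541 as deposited). Ccl20 was 1.20, 0.545 and 1.13 FPKM in the controls, 14.6, 3.05 and 27.0 in the eCRS libraries, and 8.49, 3.14 and 2.18 in the eCRS_Exo libraries. The papain libraries exceeded the controls, and the exosome libraries overlapped the papain libraries only at the low eCRS library 2. It rose by 2.64 with papain as deposited (limma, adjusted p = 0.00173) and by 2.56 scaled (adjusted p = 0.0151). When exosomes were added it fell by 1.27 as deposited (adjusted p = 0.0238) and by 1.83 scaled (adjusted p = 0.0275). Without eCRS library 3 this difference was -0.67 as deposited (adjusted p = 0.162) and -1.26 scaled (adjusted p = 0.0769), and without eCRS_Exo library 3 it was -0.95 (adjusted p = 0.0651) and -1.65 scaled (adjusted p = 0.0642). The scaled call was also lost without eCRS library 1 or eCRS_Exo library 2 (adjusted p = 0.0586 and 0.0852), and the scaled papain call without control library 2 or 3 (adjusted p = 0.0601 and 0.0508).

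Secretory epithelium and gland genes moved with Pigr after papain. Of 11 tested genes of that list, 8 were called higher as deposited and 9 scaled, with medians of 0.94 and 0.78. Over all genes 3.01% were called higher after papain as deposited and 5.77% scaled, with medians of 0.19 and -0.004. Comparing exosome with papain libraries, 5 were called higher as deposited, and scaled none was called higher while Spdef and Epcam were called lower. There 63.0% of all genes were called higher as deposited and 16.2% lower scaled. Pigr was called higher on both scales, but its scaled call depended on single libraries, as given above. Whether the change of Pigr differed from those of the listed genes was not tested. Bpifb1, a secreted airway defence protein, rose by 2.12 with papain (limma, adjusted p = 1.20e-05) and by 1.93 scaled (adjusted p = 3.28e-04). Ltf, lactoferrin, rose by 1.16 (adjusted p = 0.00267) and by 0.92 scaled (adjusted p = 0.00481). With exosomes against papain, the scaled differences of Bpifb1 and Ltf were 0.40 (adjusted p = 0.127) and 0.21 (adjusted p = 0.297).

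Correlations of the members' scaled log2 levels across the 9 libraries are given as Pearson r without a test, since the libraries come from 3 groups. Cd79a correlated with Cd79b (0.92) and Ms4a1 (0.89), and Jchain with Mzb1 (0.91), Tnfrsf13b (0.80) and Tnfrsf17 (0.74). Jchain and Cd79a correlated at 0.68. Mzb1 also correlated with Ms4a1 (0.83), and Tnfrsf13b with Cd79a (0.79) and Cd79b (0.79). These r values did not divide the members into a B cell and a plasma cell set. However, eCRS library 3 held the highest scaled value of 7 of the 9 members, and r without that library was not computed. Pigr correlated at 0.56 with Jchain, 0.61 with Mzb1, 0.25 with Cd79a and -0.82 with Derl3. These values hold the differences between groups: for deviations from the group means, Pigr correlated at 0.51 with Jchain, 0.54 with Mzb1, 0.63 with Cd79a and -0.18 with Derl3. Derl3 correlated with the other 7 genes at -0.34 to 0.10, and at -0.46 to 0.27 for the deviations, so its level did not follow those of the B cell and plasma cell genes in this tissue. Among 16850 genes the profiles most like Pigr were Tmem98 (0.99), Bpifb1 (0.99), Tprn (0.99), Cdcp1 (0.98) and Ltf (0.98). Most like Jchain were Dusp2 (0.95), Elf1 (0.95), Bmx (0.93), AB124611 (0.92) and Tcf19 (0.91). Most like Cd79a were Fcer2a (0.94), Cd79b (0.92), Gm6020 (0.92), Traf1 (0.92) and Lsp1 (0.91), 2 of them B cell genes of the lists or members.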

How the data were processed

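Poly(A) RNA of 9 nasal mucosa libraries was sequenced. The authors deposited FPKM values per Ensembl gene, and the submitters' processing notes name fastp 0.19.4, HISAT2, StringTie and mm10. Annotation, strandedness and the handling of multi-mapped reads were not given in the sources used here. Of 21930 identifiers, 21817 had a symbol. The members and lists (11 lists, 124 genes) were chosen with earlier results of these data known.

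The test was limma 3.58.1 (R 4.3.3) with its trend option on log2(FPKM + 1), fitted once to all 9 libraries (6 residual degrees of freedom), for genes of at least 1 FPKM in at least 3 libraries, two-sided, with Benjamini-Hochberg adjustment over all genes tested and a threshold of 0.05. Fold changes are on the log2(FPKM + pseudocount) scale, which understates changes of low genes. The same was run on median-of-ratios scaled values, and the low-level fit used 0.1 FPKM as filter and pseudocount. The procedure was also run on simulated data with independent normal noise and no shift between libraries. That run does not cover the shifts of the deposited scale or single high libraries such as those seen here. Depth was estimated from the steps in FPKM times length of 4394 single-transcript genes, in a window of 0.03 to 0.08 set by hand. Whole reads were not recovered, so no count test was run. Groups and replicate numbers came from the titles. No pair of libraries held identical values, and Spearman correlations within groups were 0.979 to 0.988. Named genes were the 9 members, up to 3 tested genes of smallest p per list and comparison, 10 genes given by level, and the 5 profiles most like Jchain, Pigr and Cd79a. Those described were picked with their values known. Promoter windows came from RefSeq. Some genes of the lists are not reported here. Python 3.11.15, pandas 2.3.3 and matplotlib 3.10.9 were used. Alternatives were pseudocount 0.1, no filter, 2 groups only, a replicate block, each library left out, scaling and the low-level fit. Leaving out eCRS library 3 with eCRS_Exo library 1, and leaving out libraries or blocking within the low-level fit, were added after seeing the data.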

Additional observations from a re-analysis of the deposited data

How the results depend on the processing

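Pigr kept its direction on every alternative run, and its papain call was kept on both scales when any single library was left out. The counts of genes and members called depend on the scale and on single libraries, and the cause was not tested. As deposited, genes higher and lower after papain (383 and 66) became 166 and 41 with no filter, 715 and 143 in a fit of the 2 groups only, 722 and 519 scaled, and 790 and 603 in the scaled low-level fit. The low-level fit as deposited called 134 lower. Exosomes with papain against papain (8022 and 93) became 1672 and 2022 scaled and 1599 and 1929 in the scaled low-level fit. Exosomes with papain against control (10736 and 67) became 1540 and 1954, and 1405 and 1776. Without eCRS library 3 and eCRS_Exo library 1 together, the papain counts were 184 and 43 as deposited and 263 and 140 scaled. The same omission gave 3404 and 46, and 65 and 160 scaled, for exosomes against papain, and 416 and 586 scaled for exosomes against control. Members higher after papain as deposited (2) became 1 with no filter, scaled and in the scaled low-level fit, and 3, with Mzb1, with pseudocount 0.1 (2.01, adjusted p = 0.0488), in the fit of the 2 groups only (adjusted p = 0.00271) and with the replicate block. They ranged from 2 to 3 with single libraries left out. Members higher with exosomes against control (3) became 1 under the same 3 settings. Leaving out both libraries took the members lower with exosomes against control as deposited from 1 to 0 and the members higher with exosomes against papain, scaled, from 1 to 0.

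With single libraries left out, genes higher after papain ranged from 150 (without eCRS library 3) to 1624 (without eCRS library 2) and genes lower from 34 (without control library 2) to 141 (without eCRS library 1) as deposited, and from 351 to 769 and 202 to 616 scaled. Genes higher with exosomes against papain ranged from 4819 (without eCRS_Exo library 1) to 9529 as deposited and from 726 (without eCRS_Exo library 1) to 1677 scaled, and genes lower from 1031 to 2212 scaled. Against control, the scaled ranges with exosomes were 605 (without eCRS_Exo library 1) to 1690 higher and 881 to 2083 lower. Members higher after papain, scaled, ranged from 1 to 3 (without eCRS library 1) and members lower from 0 to 1 (without eCRS library 2). With exosomes against papain, members higher scaled ranged from 0 to 1, and members lower from 0 to 1 as deposited and 0 to 2 scaled. Against control, members lower as deposited ranged from 0 to 1.

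Some differences changed direction, and after the turn only those given with a p were called. Scaling took Mzb1 with exosomes against papain from 0.06 to -0.46, and -0.53 in the low-level fit, and Ccl28 from 0.62 to -0.069, and -0.070 in the low-level fit. It took Epcam in that comparison from 0.38 to -0.33 (limma, adjusted p = 0.0156), and -0.33 in the low-level fit (adjusted p = 0.0167). Against control it took Xbp1 with exosomes from 0.43 to -0.52 (adjusted p = 0.00926), and -0.53 in the low-level fit (adjusted p = 0.0105), and Tnfrsf17 from 0.34 to -0.074. Leaving out eCRS library 3 and eCRS_Exo library 1 together turned Cd79b after papain (scaled, low-level) to -0.086, and Cd79b and Ms4a1 with exosomes against papain (low-level, as deposited) to 0.35 and 0.035, and scaled Ccl28 to 0.030. With exosomes against control it turned Cd79a to -0.19 as deposited and -0.68 scaled, and Cd79b to -0.30 scaled. Over single libraries left out, Cd79b after papain ranged from -0.087 to 1.54 (low-level, scaled). With exosomes against papain, Mzb1 ranged from -0.47 to 0.64 as deposited and -1.07 to 0.075 scaled, and scaled Ccl28 from -0.31 to 0.10. There the low-level ranges were -1.72 to 0.34 for Cd79a, -0.70 to 0.86 for Cd79b, -1.28 to 0.63 for Ms4a1 and -0.68 to 0.13 for Tnfrsf13b as deposited, and -1.46 to 0.17 for Cd79b and -1.82 to 0.046 for Ms4a1 scaled. With exosomes against control they were -0.19 to 1.25 for Cd79a and -0.19 to 0.84 for Tnfrsf17 as deposited, and -0.68 to 0.54 for Cd79a, -0.30 to 0.46 for Cd79b and -0.48 to 0.38 for Tnfrsf17 scaled.

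The labels do not say whether replicate numbers pair the libraries. Same-numbered libraries of different groups had correlations of deviations of -0.34 to 0.14 over 9 pairs, and other-numbered ones -0.42 to 0.41. No pairing was seen in these ranges, and a shared litter or day was not tested. With the replicate block, genes higher after papain were 415 and lower 82 as deposited and 554 and 357 scaled. It gave 7823 and 100, and 1371 and 1712 scaled, for exosomes against papain, and 10614 and 68, and 1186 and 1536 scaled, for exosomes against control. With the block Mzb1 was also called after papain as deposited (1.26, adjusted p = 0.0318), and the scaled calls of Xbp1 after papain (adjusted p = 0.065), Blnk with exosomes against papain (adjusted p = 0.0522) and Epcam with exosomes against control (adjusted p = 0.0658) were lost. It changed no other call among the genes tested for this text. Depth limits Mzb1, Cd79a, Cd79b, Ms4a1, Tnfrsf17 and Tnfrsf13b, whose control values rest on an estimated 0 to 27.7 fragments each.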

Other observations

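Of 8 plasmacytoid dendritic cell markers, 5 were tested. With exosomes against papain Irf8 and Bst2 were called higher as deposited, where 63.0% of all genes were called higher. Scaled, none was called higher and Klk1 was called lower, with a median of -0.17, where 16.2% of all genes were called lower. In the low-level fit, scaled, Siglech was the 1 of 8 called higher in that comparison (1.04, limma, adjusted p = 0.0423), where 9.49% of genes were called higher. Siglech, a receptor of these cells, was 0.0968, 0.176 and 0.0782 FPKM in the controls, 0.263, 0.149 and 0.291 in the eCRS libraries and 1.42, 0.583 and 0.916 in the eCRS_Exo libraries. Every exosome library was above the other 6, on a transcript that was low throughout. The highest Siglech library, eCRS_Exo library 1, also held the highest Cd79a of its group, whereas eCRS library 3, with the highest Cd79a of all, had a Siglech level close to that of eCRS library 1.

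The interleukin gene Il6, whose product acts on plasma cell survival, was 0.0122, 0.111 and listed at 0 FPKM in the controls. It was 15.1, 0.454 and 7.47 in the eCRS libraries and 0.103, 0.0163 and 0.0255 in the eCRS_Exo libraries. The eCRS library with the most Il6, library 1, had the least Jchain of its group (9.61 FPKM), and library 2, with 134 FPKM of Jchain, had the least Il6. Il6 and Siglech are given here as values chosen after they were seen.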
